A study of Mus musculus with 24 samples.

Results

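The interleukin-1 (IL-1) family genes Il1a, Il1b, Il1rn, Il18, Il18bp, Il33, Il1r1, Il1r2 and Il1rap were examined for open chromatin in mouse macrophages. A peak was counted for a gene where its summit had that gene as the nearest RefSeq protein-coding gene body, at most 50 kb away. In all, 776 of the 1274891 deposited peaks were assigned to the 9 genes. Nearness alone does not tell which gene a region acts on. ATAC-seq, in which the transposase Tn5 cuts accessible DNA and adds sequencing adapters, had been carried out on macrophages grown from bone marrow. The donors were male C57Bl/6 mice, either made diabetic with streptozotocin, a toxin of insulin-producing beta cells, or non-diabetic controls, and their age is not given by the labels. Cells were stimulated with 100 ng/mL lipopolysaccharide (LPS), a bacterial cell-wall component, and 10 ng/mL interferon gamma (IFNγ), or left unstimulated. The 24 libraries formed 4 groups of 6, namely diabetic stimulated, control stimulated, diabetic unstimulated and control unstimulated. According to the series description, every one of the 6 diabetic and 6 control samples was divided between both states. The time of stimulation is uncertain, since the labels state 6 h only for cells given IL-1β, which appears in no other label. The same protocol has baseline cells lysed at once, so stimulation and time in culture cannot be told apart. Streptozotocin had acted in the animal, so an effect of the toxin and one of diabetes cannot be told apart either.

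The IL-1 family is a group of secreted signals that start and amplify inflammation. IL-1α (Il1a) and IL-1β (Il1b) bind the receptor IL-1R1 (Il1r1), which then recruits the accessory protein IL-1RAcP (Il1rap) and signals through MyD88 and IRAK kinases to NF-κB. IL-33 (Il33) signals through ST2, also with IL-1RAcP, while IL-18 (Il18) has a receptor pair of its own and stimulates IFNγ production by lymphocytes. Several members restrain the pathway: the receptor antagonist (Il1rn) occupies IL-1R1 without signalling, IL-1R2 (Il1r2) is a decoy that binds IL-1 without signalling, and IL-18 binding protein (Il18bp) captures IL-18. In macrophages, Il1b is a classic LPS-induced gene whose product is cut to its active form by inflammasome-activated caspase-1.

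The start sites of these genes were not open alike, and 5 of them are shown because they span the range from always open to never found. Each sequence is the 250 bases before a transcription start, 5′ to 3′ on the gene's strand, from RefSeq on build GRCm38.p6. Capitals mark matches to searched motifs. The window of Il18 (chr9:50554450-50554699, + strand) and that of the internal second start of Il1rn (chr2:24345041-24345290, + strand) overlapped a region found in 24 of 24 libraries. The window of Il33 (first start, chr19:29924863-29925112, + strand) overlapped a region found in 8 libraries, and that of Il1b (chr2:129371140-129371389, − strand) one found in 5. The window of the first start of Il1rn (chr2:24336610-24336859, + strand) overlapped no region.
Il18: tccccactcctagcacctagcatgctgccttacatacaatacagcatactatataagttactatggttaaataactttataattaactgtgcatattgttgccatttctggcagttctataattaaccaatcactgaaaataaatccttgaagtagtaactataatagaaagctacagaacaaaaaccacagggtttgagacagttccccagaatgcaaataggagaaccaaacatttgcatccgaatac
Il1rn internal start: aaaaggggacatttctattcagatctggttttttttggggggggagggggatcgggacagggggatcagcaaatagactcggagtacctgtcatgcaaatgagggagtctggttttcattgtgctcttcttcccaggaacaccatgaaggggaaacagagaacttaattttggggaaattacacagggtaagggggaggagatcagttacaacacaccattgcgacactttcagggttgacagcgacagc
Il33: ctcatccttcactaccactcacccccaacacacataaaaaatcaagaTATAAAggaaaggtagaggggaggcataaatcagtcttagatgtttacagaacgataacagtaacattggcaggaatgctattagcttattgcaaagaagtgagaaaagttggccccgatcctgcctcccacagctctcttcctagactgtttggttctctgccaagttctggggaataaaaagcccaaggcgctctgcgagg
Il1b: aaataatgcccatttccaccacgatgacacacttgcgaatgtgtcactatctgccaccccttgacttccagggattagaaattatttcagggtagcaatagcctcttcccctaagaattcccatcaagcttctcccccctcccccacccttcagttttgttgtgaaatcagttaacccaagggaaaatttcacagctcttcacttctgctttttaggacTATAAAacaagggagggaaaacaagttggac
Il1rn first start: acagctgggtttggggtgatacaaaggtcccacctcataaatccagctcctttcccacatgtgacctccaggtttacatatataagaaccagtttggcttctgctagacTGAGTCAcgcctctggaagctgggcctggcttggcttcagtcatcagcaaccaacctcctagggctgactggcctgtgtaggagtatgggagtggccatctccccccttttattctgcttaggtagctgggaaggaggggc
The Il1b window held a match to the TATA box motif (TATAAA on the sense strand) whose first base lay 31 bases before the start. In the Il33 window the same letters stood 203 bases before the start. The first start of Il1rn had a match to the AP-1 motif (TGANTCA, either strand) 141 bases before it, whereas the Il18 window and the internal Il1rn window held none of the 7 motifs searched. TATAAA occurred in 7.67% and TGANTCA in 6.13% of the 21263 promoter windows of all genes. The other motifs, counted on both strands, were GAAA followed after any 2 bases by another GAAA (interferon-stimulated response element, 2.96% of windows), TTCNNNGAA (interferon gamma-activated site, 6.58%), GAGGAAGT (PU.1, 2.23%), TTGCNNAA (C/EBP, 9.09%) and NF-κB (7.91%). A match describes letters only, and a window without one says nothing about the factor. Base composition differed widely among the windows: GC content was 35.6% for Il18, 44.4% for Il1b and 45.2% for Il33. The always-open start of Il1rap stood at the other extreme, with 74.4% GC and 30 CpG dinucleotides, against a median of 55.6% GC over all windows.

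The 24 lists ranged in length from 41385 to 61861 peaks, on average 53703 ± 4511 in diabetic stimulated, 47268 ± 4535 in control stimulated, 55522 ± 4925 in diabetic unstimulated and 55990 ± 3486 in control unstimulated macrophages (SD, n = 6 each). The sequencing depth is unknown here, as no read totals were used. The deposited fold enrichment, the authors' own value for the height of a peak over its local background, had a median of 7.35 to 9.94 per stimulated library and of 9.10 to 10.5 per unstimulated library over regions found in all 24. Folds were thus mostly lower in stimulated libraries. List length of the states overlapped in both phenotypes, at 46503 to 58016 peaks stimulated and 49837 to 61861 unstimulated in diabetic macrophages, and 41385 to 54960 stimulated and 51425 to 60610 unstimulated in controls. The overlap in controls rested on control stimulated replicate 6 alone, as every other control stimulated list was shorter than all control unstimulated lists. Lists cut to equal length are given beside the results that they touch. Peaks of marker genes were counted with a distance limit of 1 kb, much narrower than the limit used for the 9 genes. Of 8 macrophage marker genes, 7 had a peak in all 24 libraries. Within that limit, the neutrophil genes Ly6g and Elane and the T cell genes Cd3e and Cd8a had no peak in any library. Nor did the B cell gene Cd79a, the erythroid gene Gata1 and the mast cell gene Ms4a2. Peaks farther from marker genes were not counted, so these absences hold for that limit only. Summed marker peaks per library numbered 19 to 31 in stimulated and 23 to 32 in unstimulated libraries for macrophages, and 1 to 2 and 2 to 4 for neutrophils. A peak in all 24 libraries was found at 1 of 6 neutrophil, 1 of 4 T cell, 1 of 3 erythroid, 1 of 3 mast cell, 1 of 4 stromal and endothelial, 2 of 3 dendritic and 0 of 4 B cell genes. Summed peaks were 8 to 15 in stimulated and 9 to 15 in unstimulated libraries for dendritic cells, and 3 to 7 and 2 to 6 for stromal and endothelial cells. T cell genes had 1 to 4 in stimulated and 3 in every unstimulated library, and B cell genes 0 to 4 and 1 to 3. Erythroid genes had 1 to 2 and 2, and mast cell genes 1 to 4 in either state. The part of these cells in the results was not tested. A region here is a set of overlapping peaks found in at least 2 libraries, and each library either had a peak in it or not. The 9 genes had 54 such regions, and 17 further regions found in 1 library each were not tested. A library without a peak was below the authors' calling threshold, which does not show closed chromatin.

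Of the 54 regions, 17 (31.5%) were found in all 24 libraries, close to 28.3% of all 80598 regions. They were spread over 7 genes: 4 at Il1r1, 3 each at Il1b, Il1rn and Il1rap, 2 at Il18 and 1 each at Il1a and Il33. Il18bp and Il1r2 had none. Always-found regions lay inside the gene body in 12 of 17 cases, against 16 of the 37 other regions, and covered a start site in 4 of 17 against 3 of 37. The median width of the 54 was 425.5 bp, against 417 bp over all regions. Density of peaks along the chromosome also differed between the genes, counted per 100 kb of the stretch nearest to each gene. Its median over the 24 libraries was 9.09 for Il1rn, 8.72 for Il18, 7.78 for Il1b and 7.70 for Il1a. Lower densities were seen for Il33 (3.73), Il1r1 (3.41), Il1rap (2.21) and Il1r2 (1.69), and Il18bp, with only 3.668 kb nearest to it, had a median of 0. Each gene's range over the libraries overlapped that of its neighbour in this order. The farthest summit counted lay 48303 bp from its gene (Il1r1) and the nearest one beyond the limit 52329 bp (Il33).

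**Figure D1:**
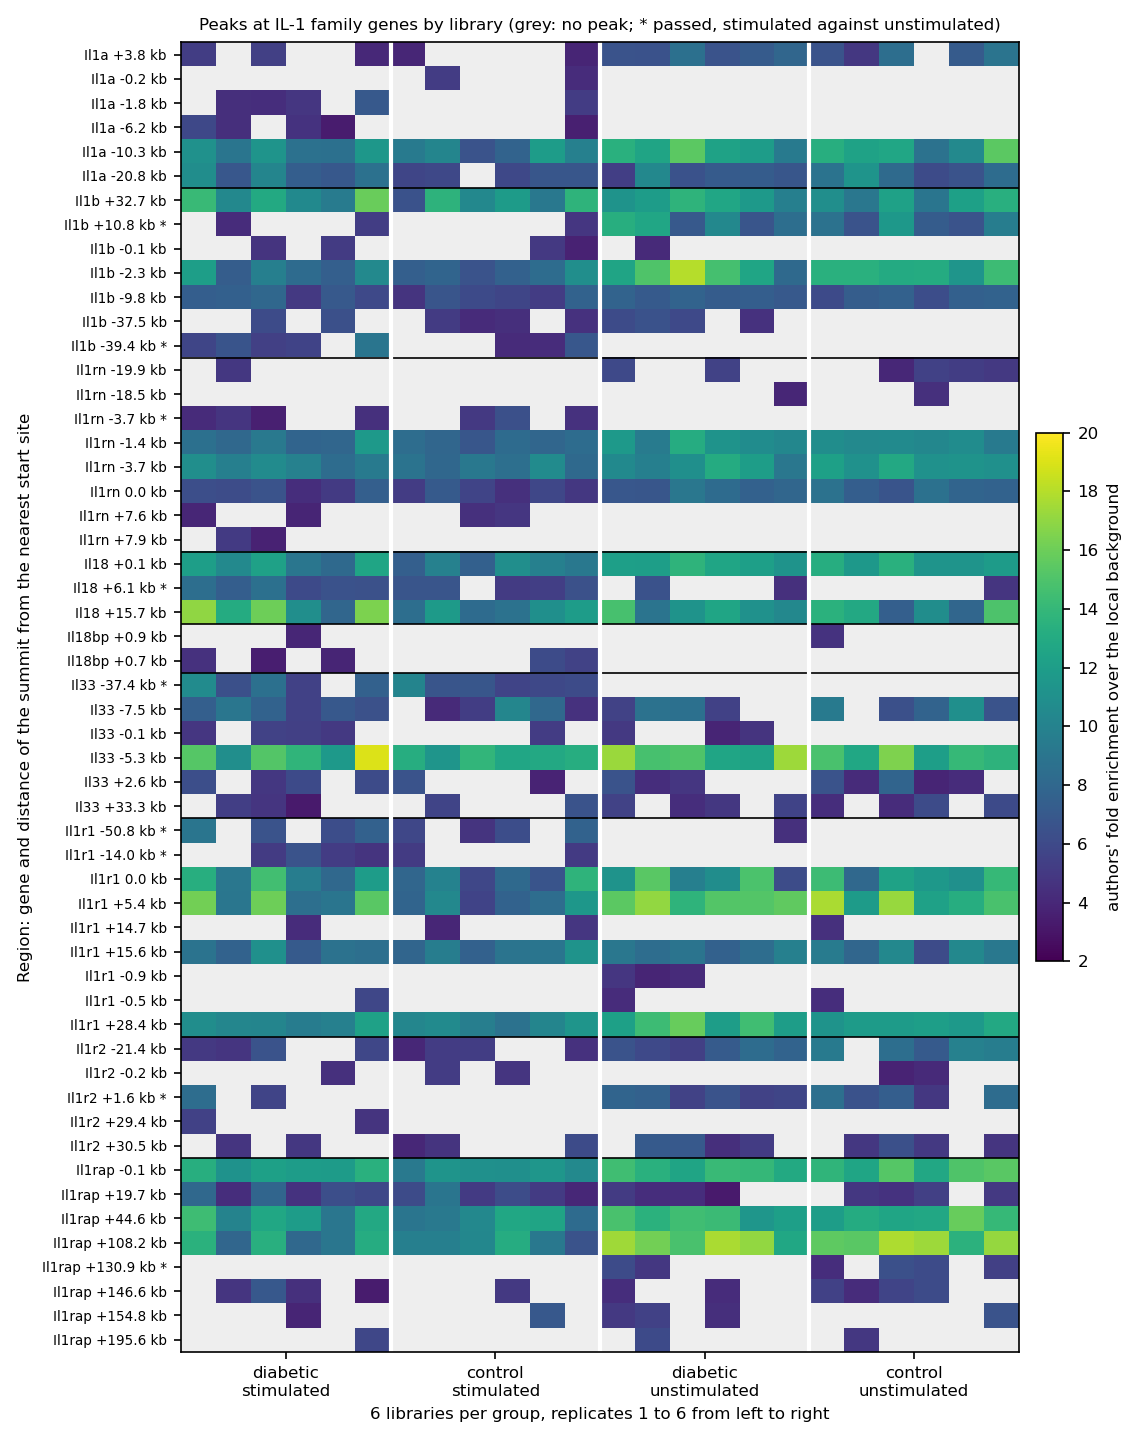
Each row is 1 of the 54 regions, named by its gene and the signed distance of its summit from the nearest start site (kb, negative before the start), and each column is 1 library, in 4 groups of 6. Colour is the authors' fold enrichment, grey means no peak, and an asterisk marks the 9 regions that passed the pooled test; the Il33 region at −37.4 kb has peaks in 11 stimulated and 0 unstimulated libraries.

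The regions found near these genes differed between stimulated and unstimulated libraries, and the differences went both ways. With phenotypes pooled (12 stimulated against 12 unstimulated libraries), 24 member regions could reach an unadjusted p under 0.05 and were tested. Two-sided Fisher's exact tests with Benjamini-Hochberg adjustment over all 31219 such regions called 6 member regions found more often in stimulated cells, 1 each at Il33, Il1b, Il1rn and Il18 and 2 at Il1r1, against 9.19% of all tested regions. Another 3, at Il1b, Il1r2 and Il1rap, were found less often, against 18.9% of all. In either direction the share was 37.5% of the member regions and 28.1% of all. The median difference in libraries with a peak, stimulated minus unstimulated, was 1.5 over the tested member regions and −2 over all tested regions.

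Il1b had such differences on both sides of the gene. The region 10799 bp downstream of its start and beyond the gene's end (chr2:129360119-129360756, mm10) was found in 2 of 6 diabetic and 1 of 6 control stimulated libraries, against 6 of 6 diabetic and 6 of 6 control unstimulated libraries. Its fold ran from 4.26 to 5.27 where found in stimulated libraries, with a median of 4.86, against 6.59 to 13.3, with a median of 8.63, in unstimulated ones, so the ranges did not overlap. It was found less often in stimulated cells (3 against 12 of 12, Fisher's exact test, adjusted p = 0.00388). In lists of equal length the count was 0 of 12 against 12 of 12 (Fisher's exact test, adjusted p = 4.21e-05). A second region, 39404 bp upstream (chr2:129410385-129410710), was found in 5 diabetic and 3 control stimulated libraries and in no unstimulated library. Its fold was low, 4.22 to 8.99 with a median of 5.70. The difference passed (8 against 0 of 12, Fisher's exact test, adjusted p = 0.0101), but not in lists of equal length (adjusted p = 0.0938).

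Other Il1b regions had a peak in both states. The region 2344 bp upstream of the start (chr2:129373153-129373766) had a peak in every library. Its fold ran from 7.32 to 12.1 (median 9.03) in diabetic stimulated and from 6.64 to 10.9 (median 7.67) in control stimulated libraries. Unstimulated libraries had 8.15 to 18.02 (median 13.6) in diabetic and 11.4 to 14.3 (median 13.2) in control macrophages. Stimulated and unstimulated control libraries did not overlap, whereas 1 diabetic unstimulated library fell within the diabetic stimulated range. Since folds were mostly lower in stimulated lists, each fold was also ranked among the 22770 always-found regions of its library. The median percentile was then 51.3 in stimulated libraries, against 83.2 in unstimulated ones, and the ranges overlapped. The regions 32714 bp downstream (median percentile 85.8 stimulated, 72.7 unstimulated) and 9790 bp upstream (24.2 and 21.2) shifted less. These peak heights are descriptions and were not tested. The Il1b start itself (region at −80 bp, its promoter window being shown above) had a peak in 2 diabetic stimulated, 2 control stimulated, 1 diabetic unstimulated and 0 control unstimulated libraries, with folds of 3.72 to 5.15 (Fisher's exact test, adjusted p = 0.518).

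**Figure D2:**
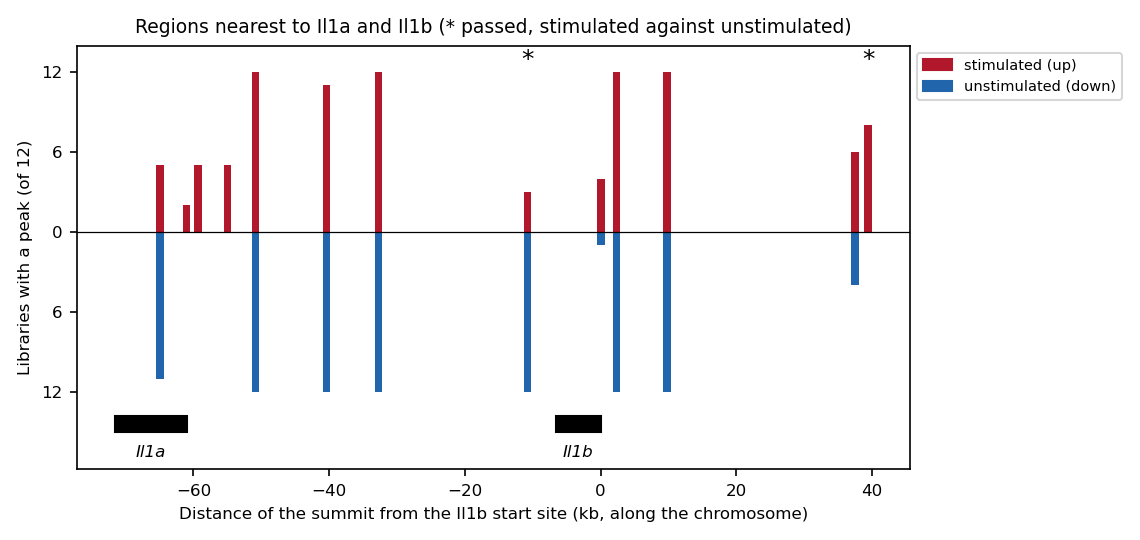
The horizontal axis gives the distance of each summit from the Il1b start site in kb along the chromosome, on which both genes are transcribed towards the left, and black boxes are the gene bodies. Bars up count stimulated and bars down unstimulated libraries with a peak, of 12 each; at the left asterisk the counts are 3 and 12, at the right one 8 and 0.

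Il1a lies next to Il1b on chromosome 2 and had 6 regions. None passed in the full lists, where 3 stood at an unadjusted p under 0.05. The region inside the gene 3773 bp downstream of the start (chr2:129305960-129306396) was found in 3 diabetic and 2 control stimulated libraries, against 6 diabetic and 5 control unstimulated ones. Folds where found were 3.87 to 5.44 in stimulated and 4.95 to 8.95 in unstimulated libraries. The pooled difference, 5 against 11 of 12, did not pass (Fisher's exact test, adjusted p = 0.0895), but in lists of equal length it was 0 against 10 of 12 and passed (Fisher's exact test, adjusted p = 0.00107). Tests of the regions 1832 bp and 6165 bp upstream, each found in 4 diabetic stimulated, 1 control stimulated and 0 unstimulated libraries, gave adjusted p = 0.0967 in the same exact test. The always-found Il1a region lay 10284 bp upstream (chr2:129319819-129320549). Its median fold was 10.1 in diabetic stimulated, 9.58 in control stimulated, 12.5 in diabetic unstimulated and 12.5 in control unstimulated libraries.

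Il33, the alarmin that dying barrier cells release, had the largest difference between states of the 9 genes in the full lists, 11 of 12 libraries. In lists of equal length and among peaks whose −log10 q-value reached 5, that of the Il1b region at 10799 bp was larger, 0 against 12. The region 37433 bp upstream of its start (chr19:29887528-29887970) was found in 5 of 6 diabetic and 6 of 6 control stimulated libraries and in no unstimulated library. Fold enrichment there was 5.48 to 10.7 (median 7.62) in diabetic and 5.68 to 10.1 (median 6.44) in control stimulated libraries. The pooled difference passed (11 against 0 of 12, Fisher's exact test, adjusted p = 0.000303) and did so under each of 5 alternatives that alter a region's own test. It lies beyond 10 kb of the gene and is left out where that limit is used. A region inside the gene, 5341 bp before its second start (chr19:29940175-29940742), was among the highest always-found regions in both states. Its median percentile was 95.4 in diabetic stimulated, 95.8 in control stimulated, 91.8 in diabetic unstimulated and 85.1 in control unstimulated libraries. The first start of Il33, whose sequence is shown above, had a peak in 4, 1, 3 and 0 libraries of these groups in the same order (5 stimulated against 3 unstimulated, Fisher's exact test, adjusted p = 0.857).

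Il18 was open at its start in every library, at a similar height rank in both states. The start-site region (chr9:50554498-50555322) had a median percentile of 72.2 in stimulated libraries and 74.0 in unstimulated ones. Inside the gene, the region 6113 bp downstream of the start (chr9:50560639-50560997) was found in 6 diabetic and 5 control stimulated libraries, against 2 diabetic and 1 control unstimulated ones. Its folds were 5.11 to 8.68 (median 6.53) in stimulated and 4.52 to 6.57 (median 4.81) in unstimulated libraries where found. It was found more often in stimulated cells (11 against 3 of 12, Fisher's exact test, adjusted p = 0.0184; 11 against 1 in lists of equal length). This region also lies in the body of Tex12, and the start-site region in that of Bco2, so neither belongs to Il18 alone. The third Il18 region, always found 15664 bp downstream (chr9:50570050-50570549), had a median fold of 14.6 in diabetic stimulated, 9.87 in control stimulated, 11.2 in diabetic unstimulated and 11.8 in control unstimulated libraries. All 4 ranges overlapped.

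Among the inhibitors, 1 Il1rn region was found more often and 1 Il1r2 region less often in stimulated cells. The Il1rn region 3701 bp upstream of the first start (chr2:24332994-24333306) was found in 4 diabetic and 3 control stimulated libraries and in no unstimulated library, with low folds of 3.56 to 6.38 (median 4.58). It passed in the full lists (7 against 0 of 12, Fisher's exact test, adjusted p = 0.0235). In lists of equal length, or among peaks whose −log10 q-value reached 5, it had too few peaks to be tested, and with adjustment over all regions it did not pass (adjusted p = 0.0606 in the same exact test). The first start, shown above without a region, was flanked by an always-found region 1357 bp upstream (chr2:24335112-24335853), with a median fold of 8.39 in diabetic stimulated, 8.12 in control stimulated, 11.02 in diabetic unstimulated and 10.6 in control unstimulated libraries. Of the 2 other always-found regions, that 3657 bp before the internal start (chr2:24341455-24341992) was the highest Il1rn region in both states by median fold, with a median percentile of 66.0 in stimulated and 66.6 in unstimulated ones. The region at the internal start (chr2:24345083-24345507) ranked low, with a median percentile of 11.8 in stimulated and 26.1 in unstimulated libraries.

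Il1r2, the decoy receptor, had no region found in every library. Its region 1558 bp downstream of the start (chr1:40087516-40087871) was found in 2 diabetic and 0 control stimulated libraries, against 6 diabetic and 5 control unstimulated ones. Folds were 5.70 and 8.40 in the 2 stimulated libraries, against 4.93 to 8.56 (median 6.61) in the unstimulated ones. It was found less often in stimulated cells (2 against 11 of 12, Fisher's exact test, adjusted p = 0.00622) and passed under each of the same 5 alternatives. The Il1r2 region found in the most libraries, 21359 bp upstream (chr1:40064504-40065098), had a peak in 8 stimulated and 11 unstimulated libraries (Fisher's exact test, adjusted p = 0.518). Where only peaks with a −log10 q-value of at least 5 were kept, its counts were 2 and 11 (adjusted p = 0.00594 in the same test). For Il18bp, the soluble IL-18 trap, 8 peaks were counted in all. Its region 702 bp downstream of the start (chr7:102017416-102017894) was found in 3 diabetic stimulated, 2 control stimulated and 0 unstimulated libraries, with folds of 3.50 to 6.11 (5 against 0 of 12, Fisher's exact test, adjusted p = 0.0967).

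The signalling receptor genes had a peak at a start site in every library, and the regions that passed lay elsewhere. At Il1r1, the start-site region (chr1:40224777-40225293) and regions 5435, 15586 and 28435 bp downstream of a start had a peak in all 24 libraries. A distal region (chr1:40174057-40174482) lay 50801 bp upstream of the first start, 48201 bp before the gene and 49049 bp from Il1r2. It was found in 4 diabetic and 4 control stimulated libraries, against 1 diabetic and 0 control unstimulated ones. Folds there were 4.72 to 8.97 (median 6.46) in stimulated libraries and 4.52 in the unstimulated one. The region was found more often in stimulated cells (8 against 1 of 12, Fisher's exact test, adjusted p = 0.0437; 8 against 0 and adjusted p = 0.00920 in lists of equal length). With adjustment over all regions it did not pass (adjusted p = 0.113, Fisher's exact test). A further region 14030 bp upstream (chr1:40210843-40211262) was found in 4 diabetic and 2 control stimulated libraries and in no unstimulated library (6 against 0 of 12, Fisher's exact test, adjusted p = 0.0489). That call held in 11 of the 24 fits that left out 1 library, and was lost without control stimulated replicate 1 or without any 1 of the 12 unstimulated libraries (adjusted p up to 0.0522). Inside Il1r1, the median percentile was lower in stimulated libraries at one region and higher at another. At 5435 bp (chr1:40230236-40230753) the median percentile was 64.3 in stimulated, against 92.8 in unstimulated libraries. At 15586 bp (chr1:40240349-40241030) it was 58.1 in stimulated, against 36.9 in unstimulated ones. Ranges of both states overlapped in each case.

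Il1rap, which encodes the co-receptor shared by the IL-1 and IL-33 receptors, had an always-found region at its GC-rich start (chr16:26581202-26582340). That region had a median percentile of 85.6 in stimulated and 86.8 in unstimulated libraries, and the always-found region 44552 bp downstream had 82.1 and 84.5 in these states. Deep inside the gene, 108202 bp downstream of the start (chr16:26689664-26690127), an always-found region had folds of 7.91 to 13.5 (median 11.1) in diabetic stimulated and 6.62 to 13.2 (median 9.77) in control stimulated libraries. Unstimulated libraries had folds of 12.8 to 17.7 (median 16.6) in diabetic and 13.5 to 17.8 (median 16.4) in control macrophages. Control stimulated and unstimulated folds did not overlap, and diabetic ones overlapped in part. Its median percentile was 73.8 in stimulated, against 96.2 in unstimulated libraries. Another region 130939 bp downstream (chr16:26712403-26712787) had no peak in any stimulated library and was found in 2 diabetic and 4 control unstimulated libraries, with folds of 4.39 to 6.40. It was found less often in stimulated cells (0 against 6 of 12, Fisher's exact test, adjusted p = 0.0489), a call that held in 13 of the 24 fits without 1 library. It was lost without control stimulated replicate 1, 2, 3, 4 or 5, diabetic unstimulated replicate 1 or 2, or control unstimulated replicate 1, 3, 4 or 6 (adjusted p up to 0.0522). In lists of equal length the region 19700 bp downstream (chr16:26601140-26601741) was found in 9 stimulated libraries and 1 unstimulated library (adjusted p = 0.0168 in the same exact test), against 12 and 8 in the full lists, where it was not tested.

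**Figure D3:**
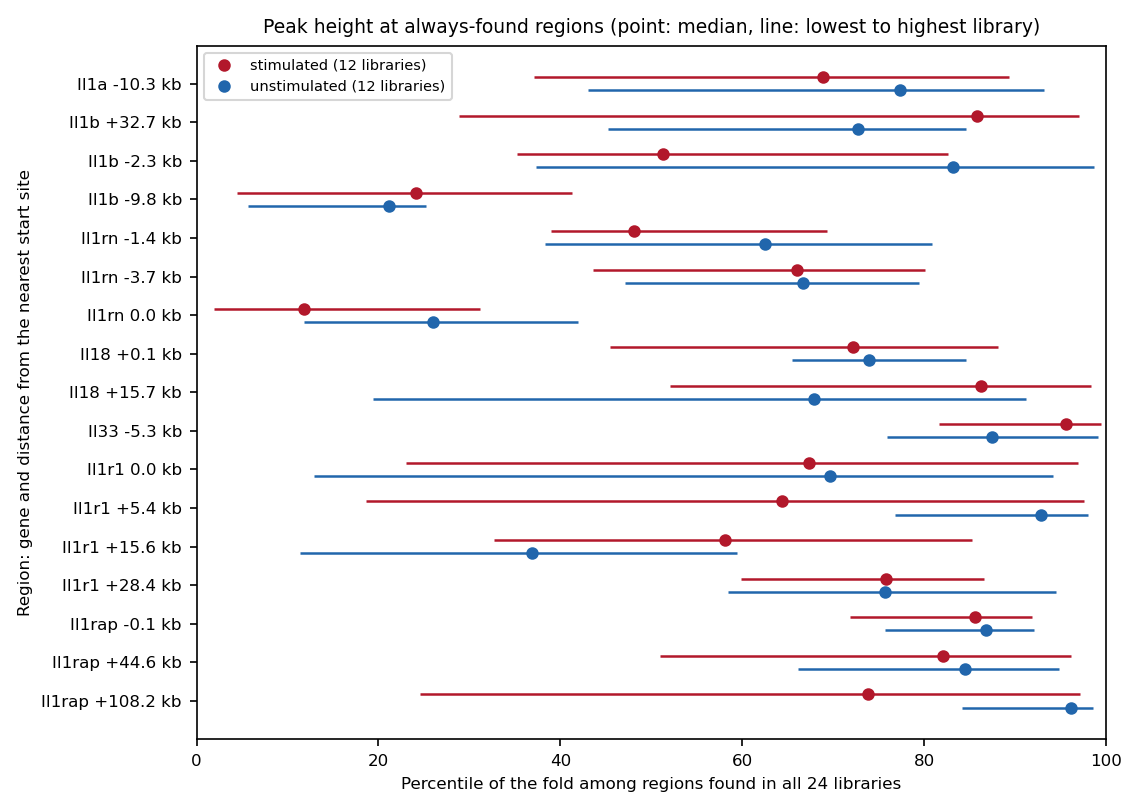
The horizontal axis is the percentile of a region's fold among the 22770 regions found in all 24 libraries, and each row is 1 of the 17 always-found member regions, named by gene and distance from the nearest start site. Points are medians and lines the lowest to highest of 12 stimulated (red) or 12 unstimulated (blue) libraries; the Il1b region at −2.3 kb has medians of 51.3 and 83.2.

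Over the 17 always-found regions, the median fold was lower in stimulated than in unstimulated libraries at 16, as it was at 86.8% of all 22770. A shift of at least 20 percentile points, a limit chosen after the values were seen, occurred downwards in 3 of 17 regions (17.6%), against 9.22% of all always-found regions. These were Il1b at −2344 bp, Il1r1 at 5435 bp and Il1rap at 108202 bp. Upwards it occurred in 1 of 17 (5.88%), Il1r1 at 15586 bp, against 7.72% of all.

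Within control macrophages alone (6 against 6 libraries), 9 member regions were tested. The smallest p that Fisher's exact test can give at this size is 0.00216. The Il33 region 37433 bp upstream was found more often in stimulated cells (6 against 0 of 6, adjusted p = 0.0173, Fisher's exact test), against 8.41% of all 12111 tested regions called in that direction. The Il1b region 10799 bp downstream (1 against 6) and the Il1r2 region 1558 bp downstream (0 against 5) were found less often (each adjusted p = 0.0422, Fisher's exact test), against 27.5% of all (35.9% in either direction). With adjustment over all regions all 3 calls were lost (adjusted p = 0.115 for Il33 and 0.281 for the other two, Fisher's exact test). With same-numbered libraries taken as pairs, neither Il1b nor Il1r2 could be tested, and Il1r2 had too few peaks for a test in lists of equal length or among peaks whose −log10 q-value reached 5. Leaving out 1 control library at a time kept the Il33 call in 12 of 12 fits, the Il1b call in 3 and the Il1r2 call in 4. Both were lost without control stimulated replicate 1, 2, 3 or 4 or control unstimulated replicate 1, 3, 4 or 6, and the Il1b call also without control unstimulated replicate 5 (adjusted p up to 0.0540). Within diabetic macrophages, Fisher's exact test called 0 of 9 member regions, against 5.47% of 11708 tested regions found more often and 3.44% found less often (8.92% in either direction). At an unadjusted p under 0.05 stood 2 of them, the Il33 region 37433 bp upstream and the Il1b region 39404 bp upstream (each 5 against 0 of 6, exact p = 0.0152, adjusted p = 0.0559). Without diabetic stimulated replicate 5, the count of member regions called was 2. In lists of equal length, 4 passed in diabetic macrophages. These were Il33 at −37433 bp (5 against 0) and Il18 at 6113 bp (6 against 1), found more often, and Il1b at 10799 bp and Il1a at 3773 bp (each 0 against 6), found less often. A pass in one phenotype and not in the other does not show that they differ. The direct test of such a difference could not be run on any region named in this paragraph. Their detections in the full lists could not give an unadjusted p under 0.05 in it.

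No difference between diabetic and control macrophages passed in the member regions that could be tested. In unstimulated cells these lay at Il1rn and Il1rap only, and Il18 had no region tested in either state. Fisher's exact test called 0 of 12 member regions tested in stimulated cells and 0 of 3 in unstimulated cells, with 0 at an unadjusted p under 0.05 in either. The background was 0% of 9681 and 0% of 8788 regions, with 292 and 137 at an unadjusted p under 0.05. Zelen's exact test of whether the effect of stimulation differed between phenotypes called 0 of 6 member regions (0% of 9353), with 1 at an unadjusted p under 0.05. That was the Il1b region 37513 bp upstream (chr2:129408467-129408810), found in 2 diabetic stimulated, 4 control stimulated, 4 diabetic unstimulated and 0 control unstimulated libraries (exact p = 0.0319, adjusted p = 1). The 9 regions that passed the pooled test were not among these 6, as their detections could not give an unadjusted p under 0.05 in Zelen's test. Whether stimulation acted differently on them in the 2 phenotypes was therefore not tested. With 6 libraries per group, only a difference of at least 5 libraries could reach an unadjusted p under 0.05 in Fisher's exact test. Even 6 against 0 libraries (exact p = 0.00216, Fisher's exact test) could not have passed the adjustment, because too few regions stood under 0.05. Neither phenotype comparison could therefore call a region, and their outcome does not show that the phenotypes were alike.

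The total number of peaks at the 9 genes also varied within each group. It was 29 to 39 (median 36.5) in diabetic stimulated, 26 to 40 (median 29.5) in control stimulated, 26 to 36 (median 32.5) in diabetic unstimulated and 26 to 34 (median 32.5) in control unstimulated libraries. These totals overlapped between all 4 groups. Per 1000 peaks of a list, the medians were 0.651, 0.627, 0.571 and 0.567 in the same order of groups. On that scale diabetic stimulated (0.615 to 0.729) and diabetic unstimulated libraries (0.522 to 0.607) did not overlap. Control stimulated (0.600 to 0.728) and control unstimulated libraries (0.462 to 0.626) did, and neither difference was tested. Gene by gene, exact permutation tests of peak number with adjustment over 16374 genes called Il18 with phenotypes pooled. It had 2.92 ± 0.289 peaks in stimulated and 2.25 ± 0.452 in unstimulated libraries (SD, n = 12 each, exact permutation test, adjusted p = 0.0374), against 1.9% of all genes with more peaks and 6.74% with fewer (8.64% in either direction). The Il18 difference rested on the region shared with Tex12: without peaks in more than 1 gene body, the call was lost. It was also lost with same-numbered libraries taken as pairs (adjusted p = 0.0920, exact sign-flip permutation test).

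For the other 8 genes the pooled test did not pass. Il1r2 came nearest, with 1.67 ± 0.888 peaks in stimulated and 2.83 ± 0.835 in unstimulated libraries (SD, n = 12 each, exact permutation test, adjusted p = 0.0683). Il1r1 had 5.75 ± 1.06 in stimulated and 4.75 ± 1.06 in unstimulated libraries (exact permutation test, adjusted p = 0.236). In Il1b the numbers were 5.50 ± 0.905 and 5.83 ± 1.03 (exact permutation test, adjusted p = 0.952). This small difference stood beside 1 Il1b region found more often and 1 found less often. In lists of equal length Il18, Il33 and Il1r1 had more peaks in stimulated cells. Among peaks with a −log10 q-value of at least 5, Il1b and Il1r2 had fewer, and Il18 and Il1r1 more. Between diabetic and control macrophages, exact permutation tests called none of the 9 genes in either state, and none within one phenotype or for the interaction (0% of 16374 genes in each). The smallest p of the exact permutation test with 6 against 6 libraries is 0.00216. That p did not pass the adjustment between phenotypes or within one phenotype, so no gene could be called there. Unadjusted p under 0.05 was reached within diabetic macrophages by Il1a (3.83 ± 0.408 against 3 in all 6) and Il18bp (0.833 ± 0.408 against 0), each with an exact permutation p of 0.0152 and an adjusted p of 0.411. The genes whose peak number over the 24 libraries was most like that of Il1b, among 15575 compared, were Zfp346 (Pearson r = 0.700), Tecta (0.683) and Spata3 (0.678). They are the highest of 15575 values over 24 libraries, and whether they exceed the highest that chance would give was not tested. These points share libraries whose lists differ in length, and the part of list length in these correlations was not tested.

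**Figure D4:**
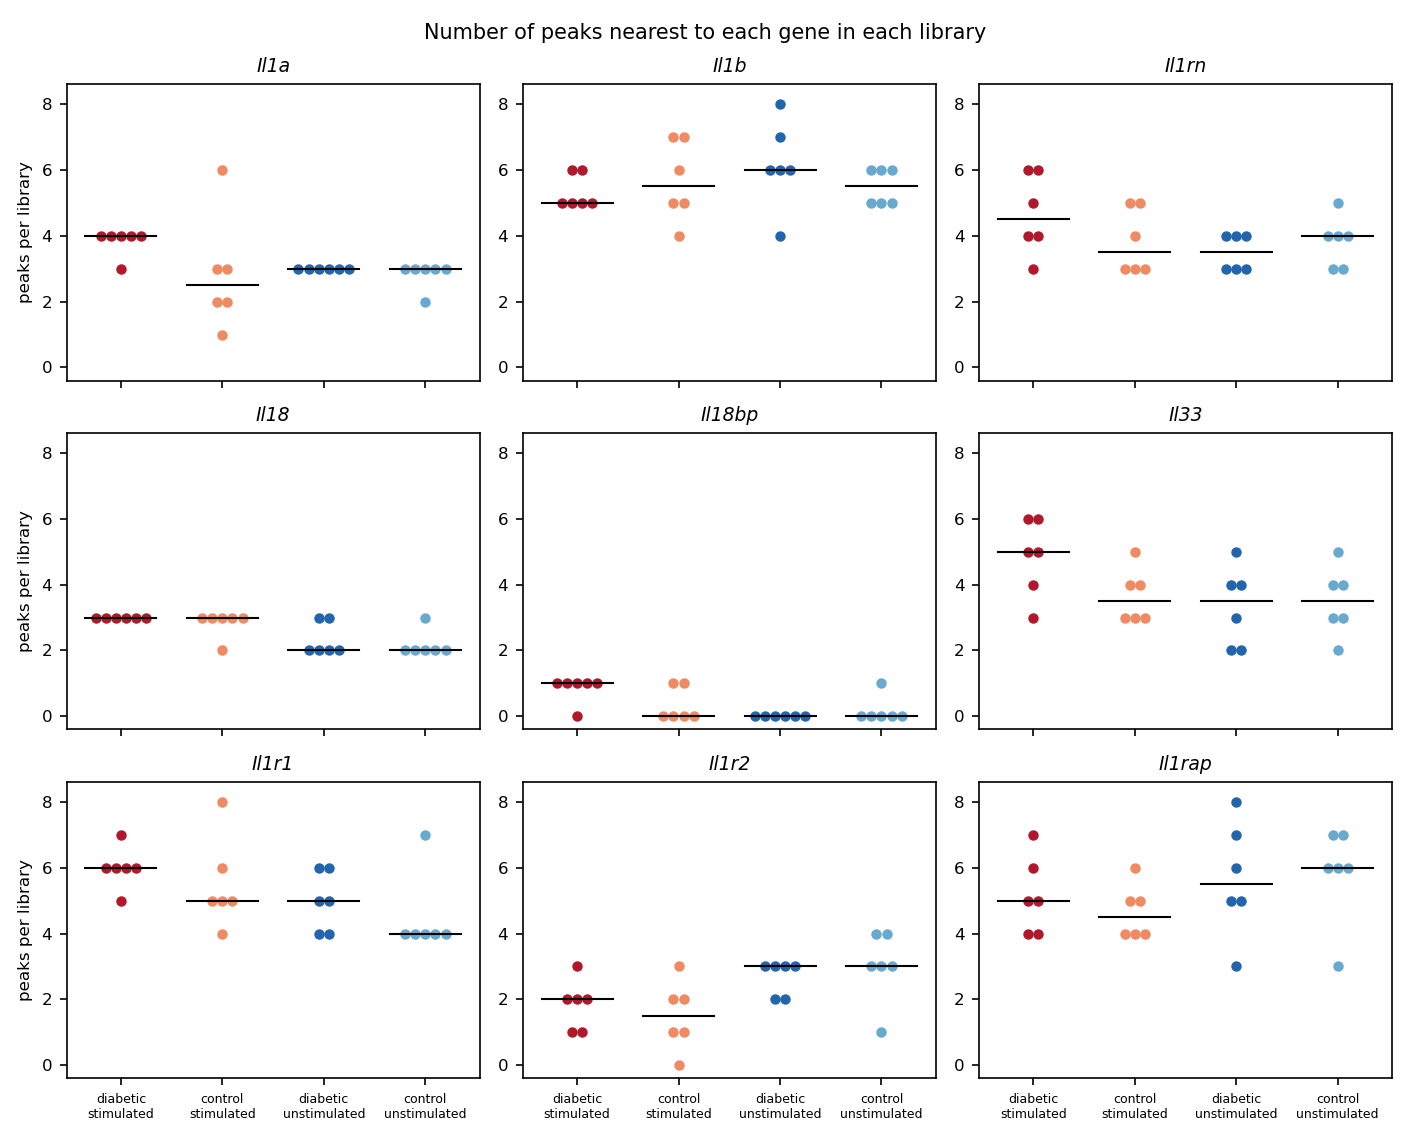
Each panel is 1 gene, each point 1 library, and the vertical axis the number of peaks nearest to that gene; groups run from diabetic stimulated on the left to control unstimulated on the right, with 6 libraries each and a line at the median. Il18 has a median of 3 peaks in both stimulated groups and of 2 in both unstimulated groups.

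Other genes of the family and its pathway also held regions that passed, to be read against 28.1% called and a median difference of −2 libraries over all tested regions. No difference from those values was tested. Of 12 other family genes, 11 were matched and had 41 regions, of which 12 were tested and 5 passed, 3 found more often and 2 less often in stimulated cells (41.7%, median difference −3 libraries). The largest was near Il1f10, which encodes IL-38, a ligand of this family, at 12 stimulated against 1 unstimulated library (adjusted p = 0.000303, Fisher's exact test). A region near Il1f9, which encodes IL-36γ, was found in 10 against 2. Il1rl1, the gene of the IL-33 receptor ST2, had one region found more often (6 against 0) and another found less often (4 against 11). A region inside Il18r1, an IL-18 receptor chain, was found in none of the stimulated and in 9 of the unstimulated libraries (Fisher's exact test, adjusted p = 0.00388). Among 16 genes of signalling and processing, 90 regions were present, 31 were tested, and 3 were found more often and 8 less often (35.5%, median difference −4 libraries).

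Irak3, which encodes an inhibitory kinase-like protein that restrains signalling below these receptors, accounted for 5 of these 11 regions. One inside the gene had a peak in every stimulated library and in no unstimulated one (12 against 0, Fisher's exact test, adjusted p = 6.17e-05), and 4 were found less often, among them 2 at 0 against 11. Tab2, an adaptor of the kinase TAK1, had a region found in 11 stimulated and 0 unstimulated libraries. Map3k7, the gene of TAK1 itself, had 2 regions found less often (5 against 12 and 0 against 9). Traf6, a ubiquitin ligase of the pathway, had a region found more often (12 against 6) and one found less often (5 against 12). Near Nlrp3, the inflammasome sensor whose activation leads to IL-1β release, 1 region had a peak in 1 stimulated library, against 9 unstimulated ones (Fisher's exact test, adjusted p = 0.0184). The other 11 genes of this list, Myd88 and Casp1 among them, had no region that passed.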

How the data were processed

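The authors deposited 1 narrowPeak list per library. The submitters' processing notes name MACS2 2.1.1, Bowtie2 2.2.6, DiffBind 2.4.8, FastQC 0.11.3, Trim Galore, edgeR and the mm10 build. The roles of these tools, the caller's settings and any shift of reads for the Tn5 offset are not stated there. Per the labels' protocols, each library came from 50000 cells, was size-selected below 1200 bp and was sequenced as 50-bp single reads. Each deposited peak has a score, a fold enrichment, a −log10 p-value and a −log10 q-value. In 99.99% of peaks the deposited score equalled 10 times the −log10 q-value, cut to a whole number. The lowest deposited −log10 q-value was 1.30, so a missing peak was above a q-value of about 0.05.

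Summits were assigned with bedtools 2.31.1 to RefSeq protein-coding gene bodies (GRCm38.p6, the mm10 chromosomes). A summit inside several bodies counted for each. Peaks that shared 1 bp or more, from any library, were joined into a region, kept if found in at least 2 libraries. Libraries with a peak were compared by two-sided Fisher's exact tests, the interaction by Zelen's exact test, and peak numbers by two-sided exact permutation tests, in Python 3.11.15 with scipy 1.17.1. Benjamini-Hochberg adjustment ran over all regions whose detections could give an unadjusted p under 0.05, or over all genes with a peak, at a threshold of 0.05. The tests were also run on simulated detections, into which no difference in list length between libraries was built. No result here rests on that run. Named were all 9 genes, regions that passed in any comparison, each gene's most frequently found region, and, from 2 pathway lists, genes with a passing region; other regions in the text were chosen after their values were seen. The genes and lists were chosen with earlier results of these data known. No 2 lists were identical, and pairs of libraries shared 55.9% to 76.7% of their regions. No label says that a replicate number marks one mouse in both states, so comparisons were unpaired. The labels do not say that the libraries of a group came from separate mice, so p-values measure the spread between these libraries.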

Additional observations from a re-analysis of the deposited data

Results flagged for a closer look

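In 112 groups of 6 libraries checked (numbers of peaks and folds of the always-found regions), 11 had 1 library far from the other 5 by Dixon's criterion, which chance alone would give in about 1 in 20 groups. Peak numbers are small whole numbers, so a library that differs by 1 peak from 5 equal ones is picked out, and 9 of the 11 were of this kind of measure. Il1a had 3 peaks in diabetic stimulated replicate 5, against 4 in the others, and 2 in control unstimulated replicate 4, against 3. Il18 had 2 peaks in control stimulated replicate 3, against 3, and 3 in control unstimulated replicate 6, against 2. Il18bp had 0 peaks in diabetic stimulated replicate 6, against 1, and 1 in control unstimulated replicate 1, against 0.

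Wider gaps were seen in 3 receptor genes. Il1r1 had 7 peaks in control unstimulated replicate 1, against 4 in each of the other 5 libraries. In control unstimulated replicate 5, Il1r2 had 1 peak, against 3 to 4, and Il1rap had 3 peaks, against 6 to 7. The always-found region 1357 bp upstream of the first Il1rn start had a fold of 6.84 in control stimulated replicate 3, against 7.92 to 8.45 in the others. The same region had a fold of 9.43 in control unstimulated replicate 6, against 10.3 to 10.8.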

How the results depend on the processing

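Results were recomputed under 9 alternatives and with each of the 24 libraries left out, and none reversed. Pooled over phenotypes, the 6 regions found more often became 3 with adjustment over all regions and 2 within 10 kb. They ranged from 5 to 8 without 1 library, and the 3 found less often ranged from 2 to 4. Smaller changes of a count under an alternative are not listed. In lists of equal length, Il33 at −37433 bp, Il18 at 6113 bp and Il1r1 at −50801 bp still passed. The others of the 6 did not pass or could not be tested there, and Il1rap at 19700 bp passed in addition. In control macrophages, the 1 found more often became 2 in lists of equal length (41385 peaks each) and 0 with adjustment over all regions or within 10 kb, and ranged from 1 to 3 without 1 library (3 without control stimulated replicate 5). The 2 found less often became 1 in lists of equal length and 0 with adjustment over all regions, and ranged from 0 to 4 (4 without control unstimulated replicate 2). In diabetic macrophages, the 0 found more often became 2 in lists of equal length and ranged from 0 to 2, the 2 arising without diabetic stimulated replicate 5. The 0 found less often became 2 in lists of equal length and 1 where the −log10 q-value had to reach 5. The single gene called by peak number became 3 in lists of equal length, 4 where the −log10 q-value had to reach 5, 3 within 10 kb and 0 without shared peaks, and ranged from 1 to 2 without 1 library. Where these counts moved, the cause was not tested.

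Same-numbered libraries did not deviate together: across states the correlations of their deviations were −0.0109 to 0.00919, and the number was the best match in 1 of 6 control and 0 of 6 diabetic cases. With the replicate block, 0 control regions were found less often, as those of Il1b at 10799 bp and Il1r2 at 1558 bp could not be tested, and 0 genes were called by peak number, Il18 being lost (adjusted p = 0.0920, exact sign-flip permutation test). It is a pairing whose smallest p within a phenotype is 0.0313. Of the alternatives, 5 alter a region's own test (equal length, −log10 q-value, joined summits, adjustment over all regions and the block). The pooled regions that passed under all 5 and without any 1 library were Il33 at −37433 bp, Il1b at 10799 bp, Il1r2 at 1558 bp and Il18 at 6113 bp. Those of Il1r1 at −14030 bp and Il1rap at 130939 bp passed under 0 of 5. The limit of 10 kb leaves out the Il33 region, both Il1r1 regions and Il1b at −39404 bp, and leaving out shared peaks drops Il18 at 6113 bp. Adjusted over all regions, Il1r1 at −50801 bp had p = 0.113 (Fisher's exact test). No read totals were used, so the depth behind a missing peak is unknown.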
